A study of Mus musculus with 576 samples.

Results

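Acta2, Tagln, Myh11, Cnn1, Myl9, Des, Rgs5, Pdgfrb, Cspg4 and Mcam are 10 genes commonly used to mark contractile cells and pericytes, and they were followed here in single mesenchymal cells of the embryonic mouse pancreas. They were chosen by symbol as a list, each symbol had 1 identifier, and together they are 10 of the 36658 gene identifiers of the count tables. The cells were GFP+ cells sorted from the dorsal pancreas at E12.5 and sequenced by Smart-seq2, a plate-based method with 1 library per cell and no molecular identifiers, so that counts are of reads. The 576 wells came from 3 lines with 2 plates of 96 wells each. In Nkx2.5-Cre;mTmG and Nkx3.2-Cre;mTmG embryos, Cre driven by the named gene switches the mTmG reporter from membrane Tomato to membrane GFP, so that a cell and its descendants stay GFP+ even after the driver gene is off. Prox1-GFP embryos carry a transgenic GFP reporter of Prox1, a gene that in the pancreas is mainly epithelial, and mesenchymal cells were a minority of the cells sorted from them. The mesenchymal cells of these lines are called Nkx2.5, Nkx3.2 and Prox1 cells here. The labels give no treatment and name no animal or litter.

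Contractile cells generate force by sliding filaments of smooth muscle actin past smooth muscle myosin, and the genes of this apparatus are switched on by serum response factor with its partners of the myocardin family, which act through CArG boxes. Pericytes and vascular smooth muscle cells, together called mural cells, wrap vessels, and are recruited by endothelial PDGF-B acting on the receptor PDGFRB. No single gene marks a pericyte, since Pdgfrb, Rgs5, Des, Cspg4 and Mcam are each used by other mesenchymal, muscle or endothelial cells, and combinations are therefore used.

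Of the 576 cells, 549 passed the filters, and 392 of these were mesenchymal by the rule of under 20 CPM (counts per cell scaled to the usual fixed total) of the epithelial gene Epcam and at least 100 CPM of Vim, which encodes the mesenchymal filament vimentin. Of these, 22 had Vim between 100 and 200 CPM and 0 had Epcam between 5 and 20 CPM. They were 79 and 66 Nkx2.5 cells of plates 6A and 6B, 90 and 85 Nkx3.2 cells of plates 7A and 7B, and 31 and 41 Prox1 cells of plates 8A and 8B. The Prox1 line also gave 59 and 49 epithelial cells, from plates 8A and 8B, with at least 20 CPM of Epcam, used here as cells that should lack the 10 genes. Total counts of a mesenchymal cell ran from 224814 to 1512736, with medians of 1052257, 898537 and 779242 in Nkx2.5, Nkx3.2 and Prox1 cells. The Nkx3.2 cells had more genes detected, with a median of 7215 against 5852 in Nkx2.5 cells and 6371.5 in Prox1 cells. The 8 markers of mesenchyme summed to 4115, 4275 and 3984 CPM in the 3 lines against 88.2 CPM in the epithelial cells, and the 7 markers of epithelium to 20.6, 47.1 and 18.5 against 4226 CPM. Epcam is 1 of these 7 and also set the groups, and it stood at 745 CPM in the epithelial cells. Each line is 1 sample and each plate holds 1 line, so that lines and plates cannot be told apart, and no p-value is given. Intervals are exact 95% intervals, Poisson for levels and binomial (Clopper-Pearson) for shares of cells, and cover counting error only. For a count of 0 the limit given is the share that 3 cells of the total would make. Plate values are given in the order A, B.

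Acta2 encodes smooth muscle actin and lies on the minus strand of chromosome 19 (GRCm38, chr19:34241090-34255590, 9 exons), and Myl9, which encodes the regulatory light chain of smooth muscle myosin, lies on the plus strand of chromosome 2 (chr2:156775420-156781658, 4 exons). Among the members with a matched RefSeq promoter (GRCm38.p6, 250 bases before the start to 50 after it), these 2 held a CArG box or a CArG-like sequence. A CArG box is CC, 6 letters of A or T, GG, and in a CArG-like sequence 1 of the 6 inner letters is G or C. No promoter was matched for Tagln, Myh11 and Pdgfrb, so these were not searched. Acta2 and Myl9 are shown because their promoters held such a motif. Among the contractile genes, Myl9 was positive in the most cells and Acta2 reached the highest level in a single cell. The capitals mark the motif, each piece holds 10 bases on either side, and positions count back from the base before the RefSeq start.
Acta2 CArG-like, -84 to -75, chr19:34255438-34255467, minus strand: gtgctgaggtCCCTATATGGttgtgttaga
Acta2 CArG-like, -34 to -25, chr19:34255388-34255417, minus strand: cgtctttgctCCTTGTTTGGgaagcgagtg
Myl9 CArG box, -161 to -152, chr2:156775293-156775322, plus strand: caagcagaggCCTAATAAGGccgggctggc
Myl9 CArG-like, -99 to -90, chr2:156775355-156775384, plus strand: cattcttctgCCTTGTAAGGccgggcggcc

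Both pieces of Acta2 lie before its RefSeq start but inside an exon of Acta2 in GENCODE M21, whose gene model starts further upstream, and both pieces of Myl9 lie outside any GENCODE exon. Of 32851 promoters of the same length, 1.63% held a CArG box and 8.50% a CArG-like sequence on either strand. The MCAT element CATTCC was found in 14.7% of all promoters and, among the members, in Acta2, on its minus strand from -146 to -141. The RBPJ core TGGGAA, the site of the Notch effector RBPJ, was found in 25.6% of all promoters and in Acta2 from -27 to -22, where it overlaps the second CArG-like sequence. A promoter was matched for 7 of the 10 members, and a match is a description of letters, not of binding.

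In the mesenchyme of the 3 lines together, the 10 genes fell into 3 patterns of how many cells held them. Rgs5, Myl9, Pdgfrb and Des reached 10 CPM, the level taken as positive, in 82.4%, 73.7%, 71.7% and 63.3% of the 392 cells. Tagln, Cspg4, Mcam and Acta2 did so in 18.6%, 18.6%, 13.8% and 13.3%. Cnn1 was positive in 5 cells and Myh11 in 3. Among the genes found in most cells, 3 are on the pericyte side of the list and 1, Myl9, on the contractile side.

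Levels of different genes were compared per kilobase of the longest coding transcript. Over all mesenchymal cells the order was Myl9 (157.4 CPM per kb), Rgs5 (95.7), Des (50.6), Acta2 (36.3), Pdgfrb (33.6), Tagln (11.7), Mcam (5.56), Cspg4 (2.35), Cnn1 (0.482) and Myh11 (0.179). Within lines several neighbours of this order overlapped between plates. In Nkx2.5 cells the plates of Myl9 (132.8 and 121.003 CPM per kb) and of Rgs5 (107.6 and 121.9) overlapped, and those of Des and Pdgfrb did too. In Nkx3.2 cells Myl9 (175.3 and 176.4) stood above Rgs5 (94.2 and 69.97), while Rgs5 and Des (77.8 and 72.1) overlapped, and Acta2 (47.6 and 14.6) overlapped both Pdgfrb and Tagln. In Prox1 cells Acta2 was second in the order at 112.7 CPM per kb, but with 1.88 on one plate and 186.6 on the other.

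**Figure D1:**
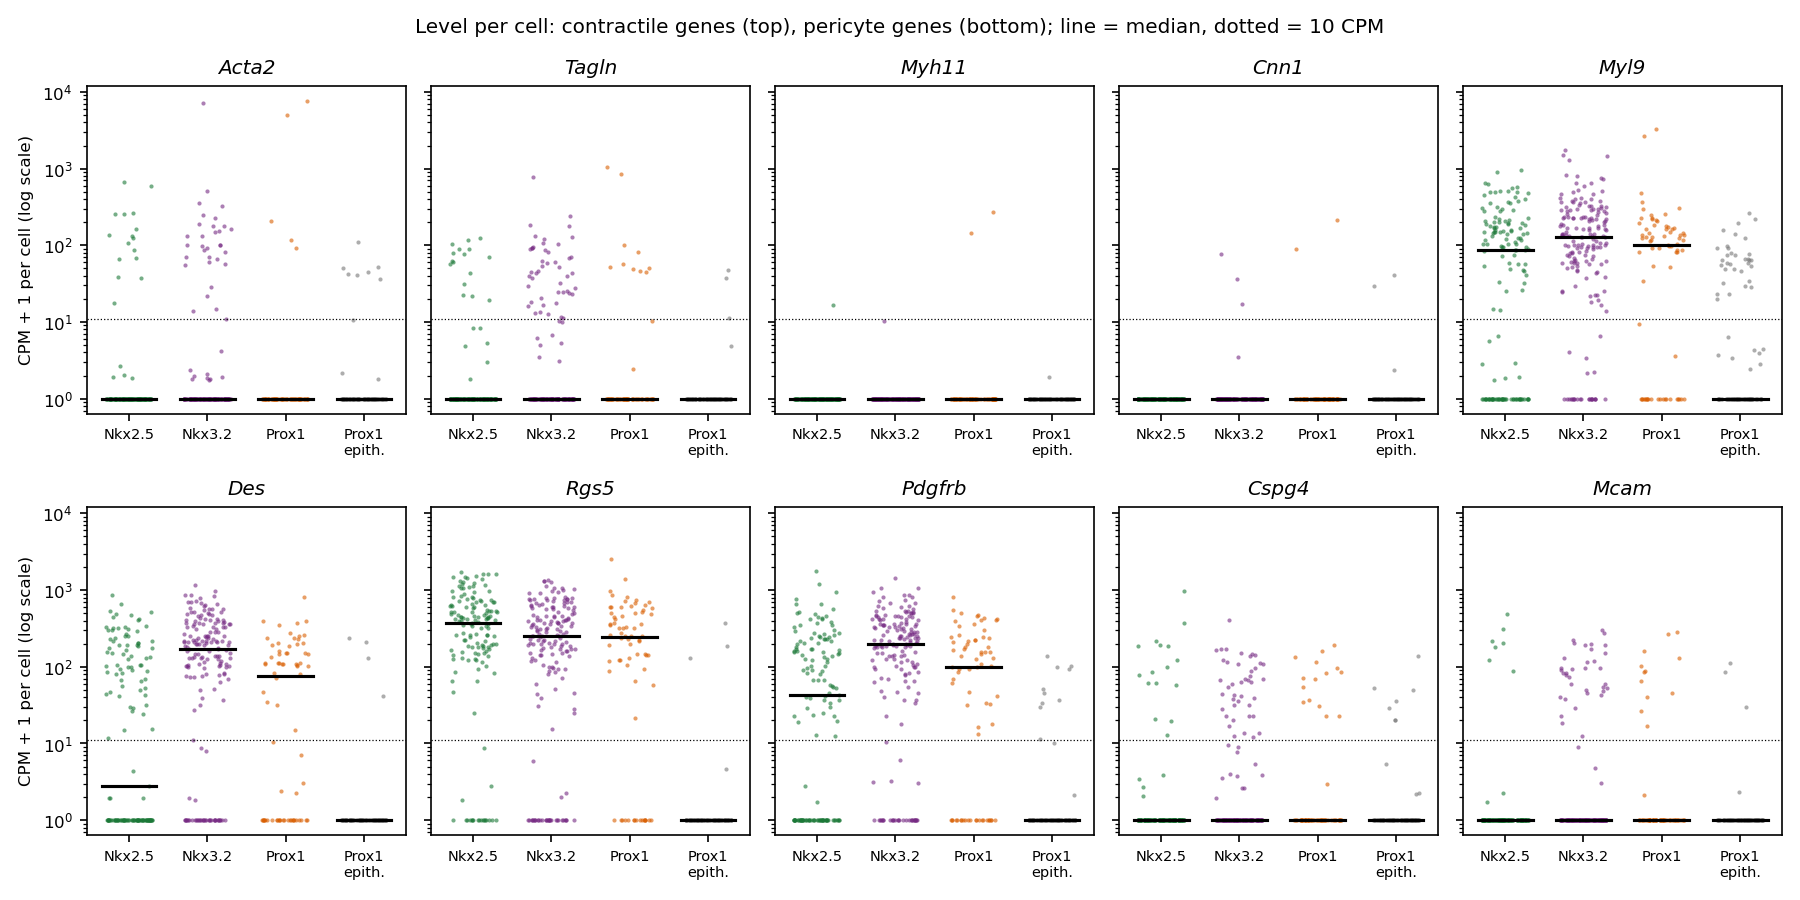
Each point is 1 cell and the vertical axis is its level as CPM + 1 on a log scale, for the mesenchymal cells of the 3 lines and the Prox1 epithelial cells; black lines are medians and the dotted line is 10 CPM. Rgs5 has points in most mesenchymal cells of every line, whereas 3 cells at 4965 to 7637 CPM stand above all others for Acta2.

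Acta2 was carried by few cells at very unequal levels. In Nkx2.5 cells it ran from 0 through a median of 0 to 663 CPM in single cells, in Nkx3.2 cells from 0 through 0 to 7194, and in Prox1 cells from 0 through 0 to 7637. The lowest and the median cell were thus alike in all lines, and the lines differed in the few high cells. It was positive in 16 Nkx2.5 cells (11.03%, interval 6.44 to 17.3), 31 Nkx3.2 cells (17.7%, 12.4 to 24.2) and 5 Prox1 cells (6.94%, 2.29 to 15.5). The share in Prox1 cells was close to that in the epithelial cells of the same line, where 7 were positive (6.48%, 2.65 to 12.9) with a highest cell of 110 CPM and similar depth. At the cut of 10 CPM the shares of mesenchymal and epithelial cells of that line were thus alike. At 100 CPM or more there were 4 Prox1 cells (5.56%) against 1 epithelial cell (0.926%). The 2 highest Prox1 cells were far above any epithelial cell.

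Summed over cells, Acta2 stood at 21.6 CPM in Nkx2.5 cells (20.9 to 22.4), 68.6 in Nkx3.2 cells (67.3 to 69.9) and 229 in Prox1 cells (225 to 233). The plates were at 27.004 and 15.3 CPM in Nkx2.5 cells, 96.8 and 29.7 in Nkx3.2 cells, and 3.83 and 380 in Prox1 cells. The plates of Prox1 cells thus enclosed the values of all the others. A single cell held 67.4% of all Acta2 counts of Nkx3.2 cells, and a single cell 58.2% of those of Prox1 cells. Without the 3 cells at 1000 CPM or more, an alternative chosen after the data were seen, the level was 21.6 CPM in Nkx2.5 cells, which held no such cell, 22.5 in Nkx3.2 cells and 7.15 in Prox1 cells.

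Tagln encodes transgelin, an actin-binding protein of smooth muscle also called SM22 alpha (chr9:45929619-45936058, minus strand, 5 exons). It was positive in 16 Nkx2.5 cells (11.03%), 47 Nkx3.2 cells (26.9%, interval 20.5 to 34.1) and 10 Prox1 cells (13.9%, 6.87 to 24.1), against 3 epithelial cells (2.78%). Its highest cell reached 123.99 CPM in Nkx2.5 cells, 782 in Nkx3.2 cells and 1046 in Prox1 cells, and the median cell was at 0 in each. The summed levels were 7.06, 22.04 and 40.8 CPM, with plates at 9.04 and 4.74, at 30.2 and 10.8, and at 6.23 and 63.8. As for Acta2, the highest and a low plate were those of Prox1 cells. Of the 31-base words of the Tagln transcripts, 58.2% also occur in the antisense transcript Gm48529 and 3.93% in the neighbour Pcsk7. The library kit does not mark strand, so reads of Tagln and of Gm48529 cannot be told apart. The symbol Gm48529 was not found among the genes counted. Pcsk7 stood at 19.3 CPM over all mesenchymal cells, against 18.7 for Tagln.

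Myh11 and Cnn1, which encode smooth muscle myosin heavy chain (chr16:14194535-14291372, minus strand, 41 exons) and calponin 1 (chr9:22099216-22109630, plus strand, 7 exons), mark mature smooth muscle and were close to absent. Myh11 was positive in 1 Nkx2.5 cell at 15.5 CPM, in no Nkx3.2 cell, which allows a share of up to 1.71%, and in 2 Prox1 cells at 143.5 and 267 CPM. Cnn1 had no count in any Nkx2.5 cell, which allows up to 2.07%, and was positive in 3 Nkx3.2 cells at 16.1, 34.9 and 75.3 CPM and in 2 Prox1 cells at 87.4 and 212. Among the epithelial cells 2 were also positive for Cnn1. The 2 Prox1 cells held all Myh11 and all Cnn1 counts of their line, and both were on plate 8B. The Nkx2.5 cell with Myh11 had no Acta2 and 1468 CPM of Rgs5, and its summed endothelial markers, at 799 CPM, were the highest of any mesenchymal cell.

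Myl9 was the contractile gene with the broadest distribution. It was positive in 62.8% of the Nkx2.5 cells (54.4 to 70.6), 85.1% of Nkx3.2 cells (78.99 to 90.1) and 68.1% of Prox1 cells (56.01 to 78.6), with medians of 86.6, 126.3 and 100.1 CPM and highest cells of 968, 1747 and 3243. Every line thus had Myl9 in most of its cells, and the shares were also above the 30.6% of epithelial cells (22.1 to 40.2), whose highest cell was at 261 CPM. The summed levels were 143.7, 198 and 209.8 CPM against 22.9 in the epithelial cells. The plates were at 149.8 and 136.5, at 198 and 199, and at 124.4 and 267 CPM, and the 2 highest Prox1 cells held 49.7% of the Myl9 counts of their line.

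Des encodes desmin, the intermediate filament of muscle cells and pericytes (chr1:75360329-75368579, plus strand, 9 exons). Its lowest, median and highest cells were at 0, 1.75 and 864 CPM in Nkx2.5 cells, at 0, 170 and 1170 in Nkx3.2 cells and at 0, 75.01 and 818 in Prox1 cells. The median Nkx3.2 cell was thus well above the median Nkx2.5 cell, although the ranges overlapped. It was positive in 48.97% (40.6 to 57.4), 77.7% (70.8 to 83.7) and 56.9% (44.7 to 68.6) of the cells, against 3.70% of epithelial cells. The summed levels were 91.2, 228 and 107.2 CPM, with plates at 107.01 and 72.7, at 236 and 218, and at 87.2 and 120.5. Both plates of Nkx3.2 cells lay above all 4 plates of the other lines.

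Rgs5, a regulator of G-protein signalling that dampens the response of vessel wall cells to contractile ligands (chr1:169655501-169695813, plus strand, 5 exons), was the member found in the most cells. It was positive in 86.2%, 81.1% and 77.8% of the Nkx2.5, Nkx3.2 and Prox1 cells, against 3 epithelial cells (2.78%). The median cell was at 371, 249.3 and 244 CPM and the highest at 1732, 1336 and 2580. Summed levels were 468 CPM in Nkx2.5 cells (plates 441 and 499), 344 in Nkx3.2 cells (386 and 287) and 325 in Prox1 cells (297 and 344). Both plates of Nkx2.5 cells lay above the 4 others, at 1.36-fold the level of Nkx3.2 cells. The counts of Rgs5 were spread over cells, since 68 cells were needed for 50% of the counts over the 3 lines, against 2 cells for Acta2.

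Pdgfrb encodes the receptor of PDGF-B (chr18:61045150-61085061, plus strand, 24 exons). It was positive in 61.4% of the Nkx2.5 cells (52.9 to 69.3), 81.1% of Nkx3.2 cells (74.6 to 86.7) and 69.4% of Prox1 cells (57.5 to 79.8), against 9.26% of epithelial cells. Median cells stood at 41.8, 195 and 98.6 CPM and the highest at 1762, 1449 and 801. Summed levels were 125.4, 248 and 148.05 CPM, with plates at 148.2 and 98.8, at 249.9 and 245, and at 180.2 and 126.6. As for Des, both plates of Nkx3.2 cells lay above the 4 others.

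Cspg4, which encodes the proteoglycan NG2 (chr9:56865033-56899870, plus strand, 10 exons), and Mcam, which encodes the adhesion molecule CD146 of endothelial and mural cells (chr9:44134469-44142727, plus strand, 16 exons), were found in a minority of cells. Cspg4 was positive in 11.03%, 24% and 20.8% of the Nkx2.5, Nkx3.2 and Prox1 cells and in 6.48% of epithelial cells. Mcam was positive in 4.83%, 20% and 16.7% and in 2.78% of epithelial cells. The summed levels of Cspg4 were nearly level between lines (20.2, 19.3 and 15.4 CPM), although its share of positive cells was lowest in Nkx2.5 cells, where 1 cell at 985 CPM held 33.8% of the counts. Those of Mcam were 11.2, 20.8 and 19.3 CPM.

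**Figure D2:**
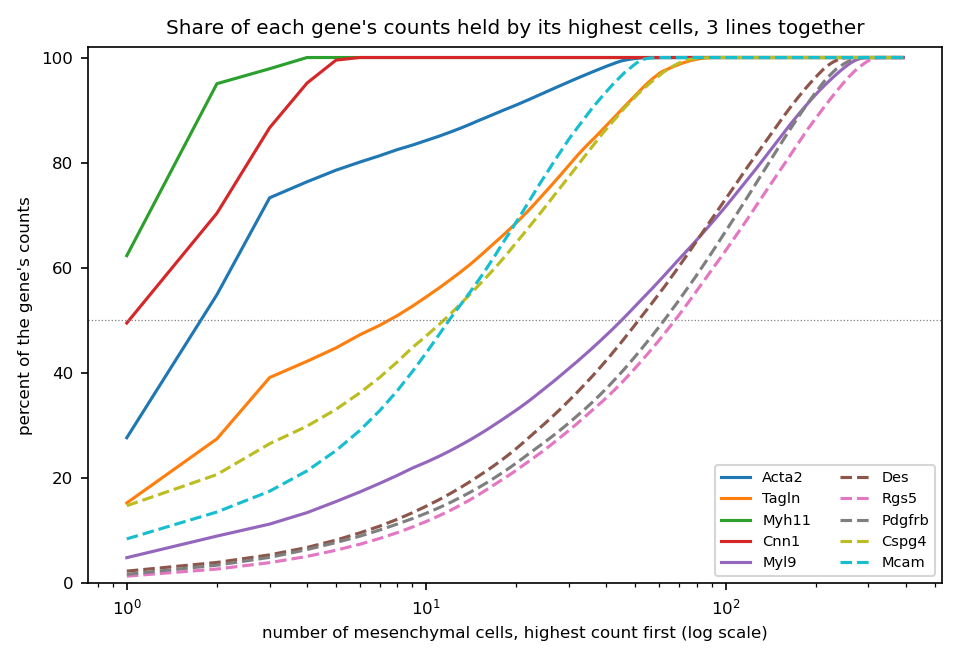
The horizontal axis ranks the 392 mesenchymal cells by their count of a gene, highest first, on a log scale, and the vertical axis is the percent of that gene's counts held so far; solid lines are contractile and dashed lines pericyte genes. The top 3 cells hold 73.3% of the Acta2 counts, whereas Rgs5 needs 68 cells to reach 50%.

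The shares were close to these at equal depth. With each cell thinned to 100000 counts and 1 count taken as detected, Acta2 was found in 11.03%, 18.9% and 6.94% of the Nkx2.5, Nkx3.2 and Prox1 cells, Des in 48.3%, 78.3% and 58.3%, and Rgs5 in 86.2%, 81.1% and 76.4%. The larger number of genes detected per cell in Nkx3.2 cells moves with their higher shares of Des, Pdgfrb, Myl9, Tagln and Mcam, and its part in them was not tested.

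Members were then compared between lines. A gene was called where the summed CPM differed at least 2-fold and both plates of one line lay above both plates of the other, among genes with at least 10 CPM in either line, which Myh11 and Cnn1 did not reach in any pair. Of the 8 members that could be called, 3 were higher in Nkx3.2 than in Nkx2.5 cells, against 6.0% of all genes, and 0 were lower, against 3.91%. Tagln differed 3.12-fold (log2 1.64, from 0.26 to 2.67 between single plates), Acta2 3.17-fold (log2 1.67, 0.14 to 2.66) and Des 2.504-fold (log2 1.32, 1.03 to 1.70). Pdgfrb, at 1.98-fold (log2 0.98, 0.73 to 1.34), and Mcam, at 1.85-fold (log2 0.89, 0.35 to 1.73), had plates apart but lay just under the 2-fold limit. Myl9 was at 1.38-fold, Cspg4 at 0.956-fold and Rgs5 at 0.736-fold. The median of the 8 members was 0.93 on the log2 scale, and that of all 10203 genes -0.01.

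These 3 calls did not rest on the same cells. Without the single cell at 7194 CPM, Acta2 was no longer called (22.5 CPM in Nkx3.2 against 21.6 in Nkx2.5 cells), whereas Tagln (17.1 against 7.06 CPM) and Des (229 against 91.2) still were. Without plate 7A only Des was called. Without plate 6A Pdgfrb and Mcam were called as well. Pdgfrb was also called with a stricter cell filter, and without the cells at 50 CPM or more of the mesothelial gene Upk3b.

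Between Prox1 and Nkx2.5 cells, 0 of the 8 members were higher and 0 lower, against 4.04% and 3.72% of all genes. Acta2 was 10.6-fold and Tagln 5.78-fold higher in summed CPM, but with plate 8A below both plates of Nkx2.5 cells for Acta2 and between them for Tagln. Without plate 8A, Acta2, Tagln, Myh11 and Mcam were called higher, and without the 2 highest cells, or without plate 8B, Acta2 was called lower. The direction for Acta2 thus turned with 2 cells. The comparisons between lines share their samples, so that they are not independent of each other.

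Between Prox1 and Nkx3.2 cells, 0 members were higher, against 3.42% of all genes, and 1 was lower, against 5.02%. This was Des, 2.13-fold lower in Prox1 cells (log2 -1.09, from -1.43 to -0.86 between single plates). It was no longer called without plate 8A, at 120.5 against 228 CPM, just under the 2-fold limit. Without plate 8A, Acta2, Tagln and Myh11 were called higher in Prox1 cells, and without plate 8B Acta2 and Tagln were called lower, so that their direction turned with the plate. Pdgfrb was 1.67-fold lower with plates apart. Without the cells at 1000 CPM or more of Acta2, both Acta2 and Tagln were called lower in Prox1 cells as well. The medians of the 8 members were 0.39 on the log2 scale for Prox1 over Nkx2.5 and -0.09 for Prox1 over Nkx3.2, and those of all genes 0.01 and 0.01.

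**Figure D3:**
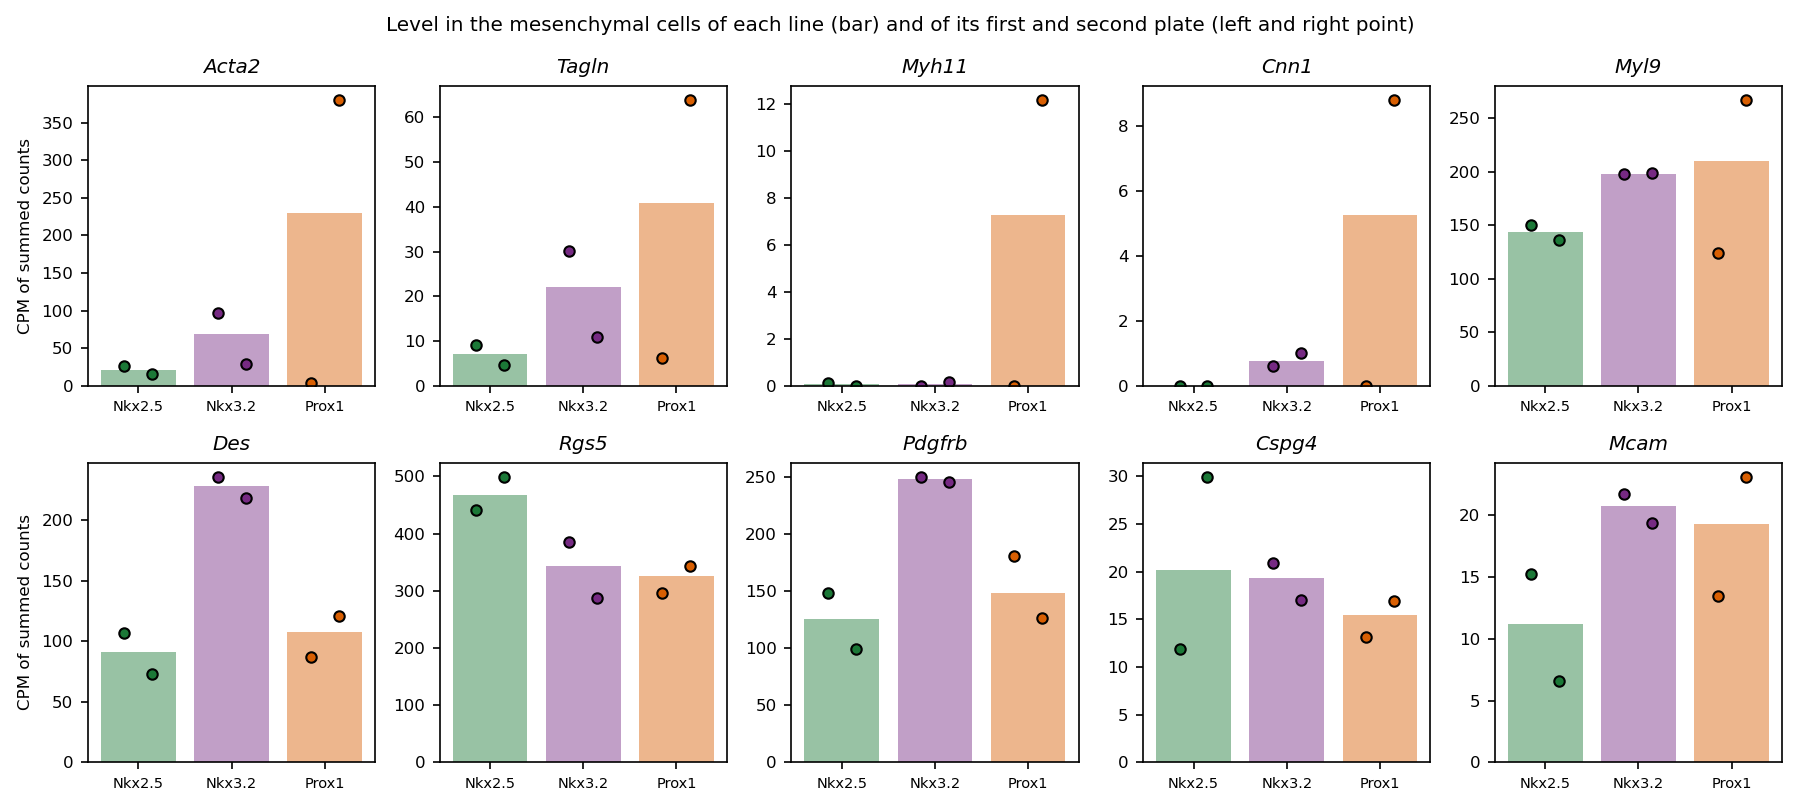
Bars are the CPM of the summed counts of the mesenchymal cells of each line, on linear axes that start at 0, and the 2 points on a bar are its plates A (left) and B (right). Des has both Nkx3.2 plates (236 and 218 CPM) above the plates of the other lines, and Acta2 has 3.83 and 380 CPM on the plates of Prox1 cells.

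Plates of 1 line were themselves apart for some members. At least 2-fold differences in either direction were seen for Cspg4 and Mcam among the 7 members at 10 CPM in Nkx2.5 cells (13.3% of all genes), for Acta2 and Tagln among 8 in Nkx3.2 cells (4.42%), and for Acta2, Tagln, Myh11 and Myl9 among 9 in Prox1 cells (17.1%). In Nkx3.2 and Prox1 cells the members apart were thus all contractile genes, and Des, Rgs5 and Pdgfrb varied less than 2-fold between plates in every line.

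In the Prox1 line, mesenchymal and epithelial cells came from the same plates. Of the 8 members at 10 CPM or more, 7 were at least 2-fold higher in the mesenchymal cells with plates apart, against 11.8% of all genes. The ratio was 51.7-fold for Rgs5 (325 against 6.28 CPM), 24.2-fold for Pdgfrb, 18.04-fold for Des, 12.1-fold for Mcam, 9.18-fold for Myl9 and 5.07-fold for Cspg4. Tagln was 52.4-fold higher, and the 2 Prox1 cells at 1000 CPM or more of Acta2 held 82.5% of its counts. Acta2 was the member not called, since plate 8A of the mesenchyme, at 3.83 CPM, was close to the 3.99 CPM of the epithelium over both plates.

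Whether the genes occurred in the same cells was examined next. At least 3 of the 5 contractile genes (Acta2, Tagln, Myh11, Cnn1, Myl9) were positive in 5 Nkx2.5 cells (3.45%, interval 1.13 to 7.86), 15 Nkx3.2 cells (8.57%, 4.88 to 13.7) and 2 Prox1 cells (2.78%, 0.338 to 9.68), and in 0 epithelial cells, which allows up to 2.78%. The cut is a place on a range, since 69 further cells held exactly 2 of the 5 and 18 held exactly 3. Of the 22 cells, 18 held Acta2, Tagln and Myl9, 2 held these with Cnn1, and 2 held all 5.

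At least 3 of the 5 pericyte genes (Des, Rgs5, Pdgfrb, Cspg4, Mcam) were positive in 35.9% of the Nkx2.5 cells (28.1 to 44.2), 71.4% of Nkx3.2 cells (64.1 to 77.99) and 54.2% of Prox1 cells (42.004 to 65.98), and in 0 epithelial cells. The plates were at 41.8% and 28.8%, at 70% and 72.9%, and at 51.6% and 56.1%, so that those of the 3 lines did not overlap. The median number of genes detected per cell (5852, 7215 and 6371.5) has the same order of lines, and its part was not tested. All 5 were positive in 8 cells, of which 7 were Nkx3.2 cells and 1 was a Prox1 cell. Over both sets the median cell held 3 of the 10 genes in Nkx2.5 cells, 4 in Nkx3.2 cells and 3.5 in Prox1 cells, and 7 of the 392 cells held none.

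**Figure D4:**
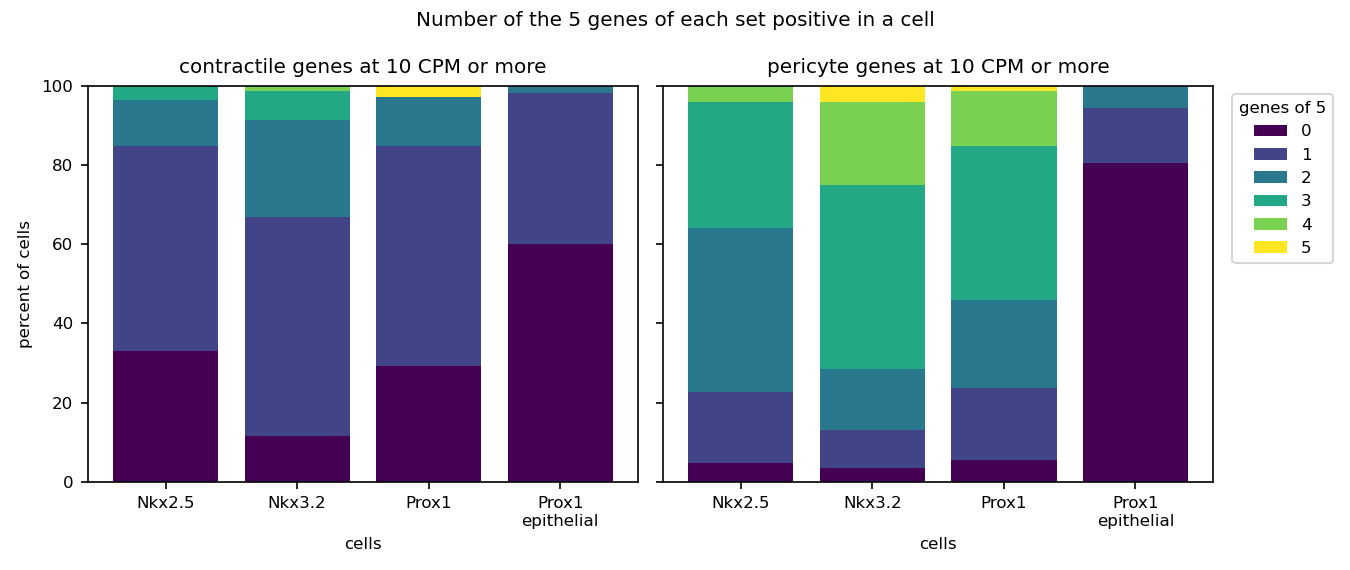
Stacked bars give the percent of cells in which 0 to 5 of the contractile genes (left) or pericyte genes (right) reached 10 CPM, for the mesenchymal cells of each line and the Prox1 epithelial cells. At least 3 pericyte genes are seen in 35.9%, 71.4% and 54.2% of the mesenchymal Nkx2.5, Nkx3.2 and Prox1 cells, and at least 3 contractile genes in at most 8.57%.

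The cells with 4 or more contractile genes carried pericyte genes as well. On plate 8B, the cell in well D1 held all 10 genes, with 7637 CPM of Acta2, 853 of Tagln, 143.5 of Myh11, 212 of Cnn1, 3243 of Myl9, 392 of Des, 739 of Rgs5, 339 of Pdgfrb, 114.4 of Cspg4 and 64.5 of Mcam. The cell in well G11 of the same plate held 9, with 4965 CPM of Acta2, 1046 of Tagln and 267 of Myh11, and Mcam at 0. On plate 7A, the cell in well A2 held 7194 CPM of Acta2, 782 of Tagln, 34.9 of Cnn1 and all 5 pericyte genes but no Myh11. These 3 cells were the only ones with more than 1000 CPM of Acta2, and they also held 813, 521 and 310 CPM of Actg2, the enteric smooth muscle actin. The fourth, in well C9 of plate 7B, held 150.6 CPM of Acta2, 75.3 of Cnn1 and 1512 of Myl9.

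These 4 cells had 890120 to 1002615 counts and 6151 to 8495 genes, against a median of 928154 counts and 6614 genes over all mesenchymal cells. Epcam and Upk3b were at 0 in all 4, and Pecam1, the endothelial adhesion molecule, was at 17.3 to 25.4 CPM. This was below its summed level of 40.9, 43.8 and 42.9 CPM in Nkx2.5, Nkx3.2 and Prox1 cells and 33.3 in the epithelial cells. Pecam1 was positive in 98.98% of all mesenchymal cells. Whether a well held 1 cell or more was not tested. Myocd, which encodes myocardin, stood at 95.7 CPM in the cell of well A2, at 1.016 in that of well G11 and at 0 in the other 2. Notch3, the Notch receptor of mural cells, was at 251, 61.998, 2.08 and 135.9 CPM in the cells of wells A2, G11, D1 and C9.

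Of the 22 cells with at least 3 contractile genes, 18 held at least 3 pericyte genes (81.8%), against 198 of the 370 other mesenchymal cells (53.5%). By line these were 2 of 5 against 35.7% in Nkx2.5 cells, 14 of 15 against 69.4% in Nkx3.2 cells and 2 of 2 against 52.9% in Prox1 cells. Median depth was 943930 counts in the 22 cells and 924747 in the others, with 7305 against 6592 genes. Of the 22 cells, 15 were Nkx3.2 cells.

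Pairs of genes were described by the share of cells positive for both. Of the 52 cells positive for Acta2, 22 were positive for Tagln (42.3%, interval 28.7 to 56.8), against 51 of the 340 without Acta2 (15%). In Nkx2.5 cells these were 5 of 16 against 8.53%, in Nkx3.2 cells 15 of 31 against 22.2%, and in Prox1 cells 2 of 5 against 11.9%. The other 30 cells with Acta2 had no positive Tagln, so that the genes were often found apart. Of the 73 cells with Tagln, 69 held Myl9 (94.5%, 86.6 to 98.5) against 68.97% of those without it. On the pericyte side, 223 of 248 cells with Des held Rgs5 (89.9%, 85.5 to 93.4), against 69.4% of those without Des. Pdgfrb was held by 77.1% of the 323 cells with Rgs5 (72.1 to 81.6) against 46.4%. In Nkx2.5, Nkx3.2 and Prox1 cells the first pair stood at 92.96% against 79.7%, 88.97% against 53.8% and 87.8% against 64.5%. The second stood at 63.2% against 50%, 89.4% against 45.5% and 76.8% against 43.8%. The 13 cells with at least 50 CPM of Upk3b, of which 11 were Nkx3.2 cells, all lacked positive Rgs5. Of these 13, 1 held Des and 2 Pdgfrb, and their part in these contrasts was not tested.

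Rank correlations over the cells of a line were weak. Averaged over lines, Spearman's rho was 0.31 for Acta2 and Myl9 (0.27 to 0.34 in single lines), 0.30 for Tagln and Myl9 (0.21 to 0.38), 0.26 for Acta2 and Tagln (0.22 to 0.29), 0.28 for Des and Rgs5 (0.14 to 0.36) and 0.26 for Rgs5 and Pdgfrb (0.03 to 0.42). Acta2 and Rgs5, each a common marker of mural cells, were at 0.01 (-0.08 to 0.11). The median over the 10 contractile pairs was 0.26, over the 10 pericyte pairs 0.06 and over the 25 pairs between the sets 0.07. The points are cells that share plates and depth, and values with Myh11 and Cnn1 rest on 3 and 5 positive cells.

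**Figure D5:**
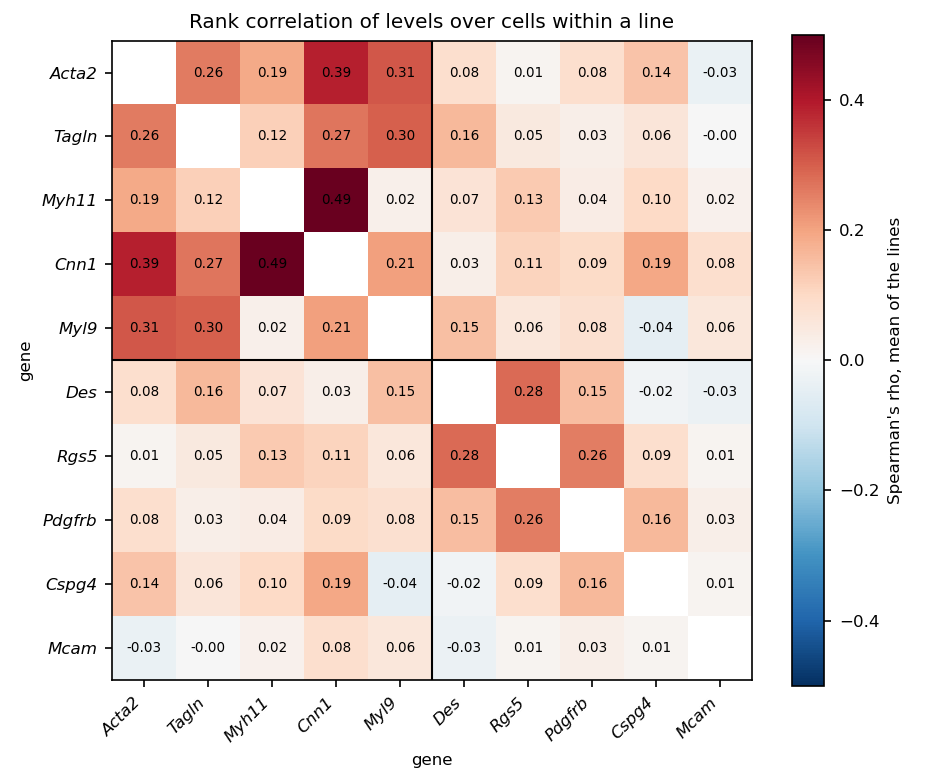
Each square gives Spearman's rho between the levels of 2 genes over the mesenchymal cells of a line, averaged over the lines where both were detected (2 lines for Cnn1); black lines part contractile from pericyte genes. Acta2, Tagln and Myl9 are at 0.26 to 0.31 with each other, and Des and Rgs5 at 0.28.

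For each member, the 3 other genes with the highest mean rho were taken among 10223 genes positive in at least 10% of the mesenchymal cells. Acta2 was most like Cnn2 (0.31), Tmsb10 (0.26) and Ywhaz (0.25), and Myl9 most like Cnn2 (0.34), Myl6 (0.33) and Tpm1 (0.29), of which Cnn2 encodes calponin 2, Myl6 a myosin light chain, Tpm1 tropomyosin 1 and Tmsb10 a binder of actin monomers. Tagln was nearest to Psmc3ip, Rflnb and Mtus2 (each 0.24). Des was nearest to Ppp1r14a (0.28), which encodes an inhibitor of myosin phosphatase, Ldha (0.26) and Htra3 (0.26). Rgs5 was nearest to Tspan18 (0.30), Gap43 (0.29) and Pcolce (0.27), and Pdgfrb to Zeb2 (0.32), Col3a1 (0.30) and Mest (0.29), of which Col3a1 and Pcolce belong to the fibrillar collagen matrix. Cspg4 was nearest to Klhl13 (0.24), Sema5b (0.23) and Kcne4 (0.20) and Mcam to Tgfb3 (0.21), Plekha5 (0.20) and Ctbs (0.20). For Cnn1 these were Hey2 (0.36), Fabp7 (0.30) and Gm13502 (0.30), and for Myh11 they were Tmem246 (0.24), Ctsc (0.21) and Vangl1 (0.20), from the few cells named above.

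The other genes of the contractile apparatus were broadly present. Of the 16 genes of that list, Flna, Cald1 and Tpm1, for filamin, caldesmon and tropomyosin, had the highest levels, at 503, 486 and 375 CPM over all mesenchymal cells, and were positive in 96.9%, 96.7% and 93.9% of the cells. Lmod1, a smooth muscle gene, was at 0.26 CPM and positive in 1.0204%. Between Nkx3.2 and Nkx2.5 cells 3 of 13 genes were called higher, against 6.0% of all genes, and 1 lower, against 3.91%. Those higher were Csrp1 (66.002 against 17.2 CPM), Vcl (59.7 against 27.01) and Smtn (40.2 against 19.5). The lower gene was Pdlim3 (15.9 against 66.1), and the median was 0.17 on the log2 scale. In Prox1 against Nkx2.5 cells 1 of 14 was higher (Actg2, at 25.8 against 2.20 CPM), against 4.04% of all genes. Set against Nkx3.2 cells, 1 of 14 was higher (Pdlim3) and 1 lower (Csrp1), against 3.42% and 5.02% of all genes. A count of 1 of 14 is near these shares. The level of Actg2 rested on the 2 Prox1 cells with at least 3 contractile genes, at 666 CPM, since the other Prox1 cells were at 2.34 CPM.

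Cells with at least 3 contractile genes were also set against the other mesenchymal cells of their line for this list, which holds no member. In both lines with at least 5 such cells, Tpm2, Vcl and Mylk of the 12 genes that could be called were at least 2-fold higher, against 0.962% of all genes, and 0 were lower, against 3.75%. Vcl, which encodes vinculin, stood at 106.8 against 24.3 CPM in Nkx2.5 cells and 147.2 against 51.4 in Nkx3.2 cells. Tpm2 stood at 285 against 77.2 and at 244 against 121.7 CPM, and Mylk, the kinase of the myosin light chain, at 42.6 against 19.007 and 24.9 against 8.65. The median ratio of the 12 genes was 1.62 in Nkx2.5 and 1.51 in Nkx3.2 cells, and that of all 9559 genes 0.868 and 0.970. In the 2 such Prox1 cells Mylk was at 0 CPM, while Tpm2 was at 509 against 88.7 and Actg2 at 666 against 2.34.

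Of 12 regulators of smooth muscle genes, 4 could be called in the same cells, with median ratios of 0.838 and 1.14. Among these 4, 0 were higher or lower, against 0.962% and 3.75% of all genes. The 3 with the highest levels over all mesenchymal cells were Nr2f2 (555 CPM), Mrtfb (99.6) and Tbx2 (51.2), of which Mrtfb encodes a partner of serum response factor. Srf itself was at 10.5 CPM and Myocd at 3.78 CPM, positive in 14.5% and 3.32% of the cells. Heyl and Hey1, targets of Notch, did not reach the level needed for a call. They were at 329 and 135.2 CPM in the 2 such Prox1 cells against 10.03 and 2.96 in the other Prox1 cells. In Nkx3.2 cells they were at 67.1 against 7.95 and 5.24 against 1.67 CPM. In such Nkx2.5 cells both were at 0, against 6.15 and 2.44 CPM in the others. Between lines, Srf was the 1 of 6 called lower in Nkx3.2 than in Nkx2.5 cells (6.64 against 14.8 CPM), against 3.91% of all genes. Mrtfa was the 1 of 5 called lower in Prox1 than in Nkx3.2 cells (13.9 against 31.6), against 5.02% of all genes. No other regulator was called.

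Genes that accompany Pdgfrb and Rgs5 in pericytes were present in part. S1pr3, Gucy1a1 and Kcnj8 had the highest levels of the 15 genes of that list, at 480, 177.3 and 159.3 CPM over all mesenchymal cells. Kcnj8 and Abcc9, the subunits of the potassium channel of pericytes, were positive in 42.3% and 52.04% of the cells, and Notch3 in 55.6%. By contrast Higd1b was at 0 in all cells and Vtn, Igfbp7 and Ndufa4l2, markers of pericytes in later tissues, were at 0.06, 0.08 and 1.12 CPM, and Vtn was at 328 CPM in the epithelial cells. Between lines 9 genes could be called in each pair, and the one called was Angpt1, the pericyte ligand of the endothelial receptor Tek. It was at 29.2 CPM in Prox1 cells against 5.26 in Nkx2.5 and 10.1 in Nkx3.2 cells. Of all genes, 4.04% and 3.42% were called higher in these 2 pairs. In cells with at least 3 contractile genes, 0 of 8 were called either way, against 0.962% higher and 3.75% lower among all genes.

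Among the paralogues of the members in non-muscle cells, Actb, Actg1 and Cnn3 had the highest levels, at 6563, 1907 and 1362 CPM. Cnn2 was the one of 14 that was at least 2-fold higher in the cells with at least 3 contractile genes, against 0.962% of all genes. It was at 441 against 170 CPM in Nkx2.5 cells and 790 against 335 in Nkx3.2 cells. Between Nkx3.2 and Nkx2.5 cells 2 of 15 were called higher, against 6.0% of all genes, and 1 lower, against 3.91%. Higher were Cnn2 (375 against 178.4 CPM) and Actg1 (2734 against 1195), and lower was Rgs4, a relative of Rgs5 (31.9 against 87.7). Prox1 against Nkx2.5 cells gave 2 of 16 higher, against 4.04% of all genes. These were Tagln3 (23.03 against 8.84 CPM) and Actg2, a smooth muscle actin that stands in this list too and whose values are given above. Prox1 against Nkx3.2 cells gave 1 of 16 lower, Nes (11.5 against 29.4 CPM), against 5.02% of all genes. Acta2 shares 1.39% of its 31-base words with other actin genes and pseudogenes, and Myl9 and Myh11 share 0.412% and 0.905% with theirs. Des shares 5.12% with the antisense transcript Gm15179, which cannot be told apart without strand.

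Mesothelial and cycling cells were then set against the rest. The 13 cells with at least 50 CPM of the mesothelial gene Upk3b, of which 11 were Nkx3.2 cells, had Rgs5 and Cspg4 in 0 cells, which allows up to 23.1%, Acta2 in 0, Des in 1 and Pdgfrb in 2, whereas 12 held Myl9 and 8 held Mcam. Among the other 379 cells Rgs5 was positive in 85.2%, Des in 65.2%, Pdgfrb in 73.6% and Mcam in 12.1%. The Mcam level was 77.97 CPM in the 13 cells and 14.5 in the others. In the 120 cells with at least 20 CPM of the proliferation gene Mki67, Rgs5 stood at 306, 318 and 258 CPM in Nkx2.5, Nkx3.2 and Prox1 cells, against 534, 355 and 360.5 in the other cells. Tagln stood at 10.94 against 5.45 CPM in Nkx2.5 cells, 7.54 against 27.9 in Nkx3.2 cells and 49.3 against 36.3 in Prox1 cells. Acta2 stood at 42.5 against 12.98 CPM in Nkx2.5 cells and at 15.7 against 89.97 in Nkx3.2 cells, so that the order was opposite in these lines, but 1 cell held 72.2% of the Acta2 counts of the Nkx3.2 cells under 20 CPM of Mki67. In Prox1 cells Acta2 stood at 386.6 against 146.4 CPM, with 1 cell holding 100% and 92.8% of the counts.

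Markers of other cell types in the mesenchymal cells were low but uneven. The 8 endothelial markers summed to 76.95, 82.2 and 71.2 CPM in the 3 lines, close to the 74.5 of epithelial cells, with 3, 2 and 4 of them at 0. The summed immune markers were at 4.44, 2.96 and 124.98 CPM, since 1 cell on plate 8A reached 12253 CPM. The erythroid markers summed to 3.51, 46.6 and 0.509 CPM, and the 8 markers of striated muscle to 2.71, 7.03 and 8.50. The neural crest markers summed to 15.7, 15.5 and 19.4 CPM, the mesothelial ones to 108.3, 202 and 40.5 and the proliferation genes to 1120, 723 and 1344. Without the 5 cells whose immune, erythroid or endothelial markers reached 500 CPM the calls between lines stayed the same. Several of these markers were called between lines themselves, beside the shares of all genes given above for each pair. In Nkx3.2 over Nkx2.5 cells Krt8, Krt18, Krt19, Lrrn4, Hbb-bs and Hba-a2, for keratins, a mesothelial protein and globins, were higher, at 12.7 to 23.5 against 0.00337 to 5.43 CPM, and the cycling genes Mki67 and Top2a were lower (83.9 against 182.05 and 146.3 against 302 CPM). In Prox1 over Nkx2.5 cells Upk3b was lower (0 against 14.2 CPM). In Prox1 over Nkx3.2 cells the same 6 genes with Upk3b, Upk1b and Wt1 were lower, Wt1 at 39.1 against 117.9 CPM, and Fabp7 (10.4 against 4.89) and Ccnb1 (307 against 99.004) were higher. Without the Upk3b cells defined above, Acta2, Tagln and Des stayed called higher in Nkx3.2 than in Nkx2.5 cells, and Pdgfrb was added. Des stayed the 1 member called lower in Prox1 than in Nkx3.2 cells. Otherwise the part of these markers in the differences of the 10 genes was not tested. In cells with at least 3 contractile genes, none of the 6 proliferation genes, 6 mesenchymal, 2 endothelial or 1 epithelial marker that could be called passed 2-fold in the same direction in both lines, and of 2 mesothelial ones Upk3b was lower, at 0 CPM in these cells. The cyclin gene Ccnb1 passed 2-fold in opposite directions, at 603 against 182.6 CPM in Nkx2.5 cells and 2.80 against 108.2 in Nkx3.2 cells.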

How the data were processed

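Single GFP+ cells were profiled by Smart-seq2 in 3 count tables, 1 per line, with 36658 gene identifiers and 1 column per well. Per the labels and methods, the authors trimmed reads with Trim Galore 0.6.5, quantified transcripts with kallisto on GRCm38 (mm10), converted these to gene level by tximport and deposited estimated counts per gene and cell, of which 36.1% of values above 0 are not whole. The annotation release is not given in the sources used here. Identifiers without a symbol hold 0.605% of the counts.

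A cell was kept if it had 1000 genes or more, a total of 100000 or more, and mitochondrial reads of 30% or less (27 of 576 were left out), and no doublet caller was run. Levels are CPM of counts summed over cells, which were rounded only for thinning and for the TMM (edgeR 4.0.16) and DESeq2 1.42.0 scaling factors tried as alternatives. A cell was positive for a gene at 10 CPM or more. The labels name no animal, so each line is 1 sample and no test was run. The named genes are the 10 members, the genes called in each fixed list, the 3 genes of highest level in it and the 3 genes most like each member, and others named were chosen after their values were seen. The members and lists were chosen with earlier results of these data known. Symbols, positions and lengths are from GENCODE M21, and promoters from RefSeq. Shared sequence was counted as 31-base words of the transcripts. The calling step was tested on simulated plate sums, which did not model single cells that hold most counts of a gene. The thinning step was checked on the real counts, by the share of the members before and after it. Analyses used Python 3.11.15 with numpy 2.4.6, pandas 2.3.3, scipy 1.17.1 and matplotlib 3.10.9, and R 4.3.3. Other cell filters, cell rules, thresholds, scalings and plates left out were tried.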

Additional observations from a re-analysis of the deposited data

Results flagged for a closer look

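The 42 cells that passed the filters but met neither the mesenchymal nor the epithelial rule entered no comparison. In them 7 members had a Poisson interval wholly above that of the Prox1 epithelial cells. Such intervals cover counting error only. The rule was not applied to all genes, so this count has no background share beside it. Rgs5 stood at 386 CPM against 6.28, Pdgfrb at 182.2 against 6.11 and Myl9 at 107.95 against 22.9. Des stood at 91.04 CPM against 5.94 and Acta2 at 27.4 against 3.99. Cspg4 was at 12.7 CPM against 3.04 and Mcam at 7.70 against 1.59. Of the 42 cells, 28 were from Nkx2.5 embryos, 9 from Nkx3.2 embryos and 5 from Prox1-GFP embryos, and 16 had Vim between 50 and 100 CPM, just under the limit.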

How the results depend on the processing

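Each line is 1 sample of 2 plates, cells share their source, and no interval covers differences between embryos. No paired analysis was possible because the result comes from no test and the labels pair no samples. Of the 8 members that could be called, 3 were higher in Nkx3.2 than in Nkx2.5 cells, 5 at a 1.5-fold limit, and 1 to 5 with a plate left out (only Des without 7A, 5 without 6A). For Prox1 over Nkx2.5 cells, 0 were higher (0 to 4 with a plate left out, 4 without 8A) and 0 lower (0 to 1 with a plate left out, and 1, Acta2, without the cells at 1000 CPM or more of Acta2). For Prox1 over Nkx3.2 cells, 0 were higher (0 to 3 with a plate left out) and 1 lower, which became 2 at 1.5-fold, 0 at 3-fold, 3 without the cells at 1000 CPM or more of Acta2, and 0 to 3 with a plate left out (0 without 8A, 3 without 8B). Cells with at least 3 contractile genes were 3.45%, 8.57% and 2.78% of Nkx2.5, Nkx3.2 and Prox1 cells. At least 2 genes gave 15.2%, 33.1% and 15.3%, at least 4 gave 0% and 1.14% in Nkx2.5 and Nkx3.2 cells, and a level of 50 CPM as positive gave 4.57% in Nkx3.2 cells. Prox1 cells gave 0% without the cells at 1000 CPM or more of Acta2. With a plate left out the shares were 1.52% to 5.06% (1.52% without 6A), 7.78% to 9.41% and 0% to 4.88%. Those with at least 3 pericyte genes were 35.9%, 71.4% and 54.2%, at 50 CPM 22.8%, 62.3% and 37.5%, at least 2 genes 77.2%, 86.9% and 76.4%, at least 4 genes 4.14%, 25.1% and 15.3%, and with a plate left out 28.8% to 41.8%, 70% to 72.9% and 51.6% to 56.1%. Of 480 recomputed levels 461 moved by at most the SD of the plates. Leaving out a plate says little here, since the same 2 plates set the SD, and all 30 levels stayed within it each time. Acta2 in Prox1 cells counted as unmoved although it went from 229 to 3.83 CPM without plate 8B. A plate of another line left out changes no level or share. Of 420 shares of positive cells, 405 stayed within their counting interval. Of 433 log2 differences, 384 moved by less than the SD of the plate pairs, and 13 counts of called members moved by over 1.5 times. No difference called with all plates changed sign, but Acta2 for Prox1 over either line and Tagln for Prox1 over Nkx3.2, not called with all plates, were called higher without 8A and lower without 8B. Leaving out cells at 1000 CPM or more of Acta2, or cells of another type, was chosen after the data were seen. The cause of these shifts was not tested.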
